A study of Rattus norvegicus with 31 samples.

Results

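The strains compared here are 21 recombinant inbred rat strains of the HXB and BXH families, and they were chosen by their level of Alb, the transcript of serum albumin, in left ventricle libraries. A strain was placed in the high-Alb group when its log2 value of Alb was 11.9 or more and in the low-Alb group when it was lower. By this rule 11 strains were high and 10 were low, out of 21 strains and of 31 libraries in the series. The high group held 6 BXH strains (BXH2, BXH5, BXH6, BXH8, BXH10 and BXH12) and 5 HXB strains (HXB17, HXB20, HXB24, HXB25 and HXB29). The low group held 3 BXH strains (BXH9, BXH11 and BXH13) and 7 HXB strains (HXB1, HXB3, HXB5, HXB7, HXB13, HXB21 and HXB31). The 2 families descend from crosses of the spontaneously hypertensive rat (SHR) and the Brown Norway strain BN-Lx, each strain being inbred to its own fixed mixture of both genomes. All rats were untreated males kept free of alcohol and drugs, and their age is not given in the labels. Each strain was measured in 1 library of total RNA depleted of ribosomal RNA, so the strain is the replicate, and a difference of genotype, of animal and of dissection cannot be told apart within a strain. Values are the authors' log2 expression levels per RefSeq gene. In bulk tissue, fewer cells of a type and less RNA per cell cannot be told apart.

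Albumin is made by hepatocytes, the main cells of the liver, which also secrete most plasma proteins: the apolipoproteins of lipoprotein particles, the fibrinogen chains and other clotting factors, complement, and protease inhibitors. Hepatocytes hold the enzymes of the urea cycle, of bile acid synthesis and of drug metabolism as well, and their identity rests on transcription factors such as HNF1 and HNF4. The left ventricle is mostly heart muscle by mass, with endothelium, fibroblasts, mural cells and macrophages, and some genes listed for the liver also work in these cells, for example Acsl1, which activates long-chain fatty acids for oxidation.

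Alb ranged from 9.70 in HXB31 to 13.69 in BXH5 on the log2 scale. Just outside the threshold stood HXB3 at 11.61 and HXB13 at 11.76, and just inside it HXB20 at 11.98. The widest gap between neighboring strains, 0.94, lay lower, between BXH9 at 10.67 and HXB3 at 11.61, so the last 2 low strains stood nearer to the high group than to the other low strains. In the high group 7 strains lay between 11.98 and 12.28, followed by HXB17 at 12.88, BXH12 at 12.93, BXH8 at 13.50 and BXH5 at 13.69. The columns carry a batch suffix. The 6 libraries of suffix 1 were labeled sequencing batch 2 and the 15 of suffix 2 sequencing batch 3. The high group held 4 libraries of suffix 1 and 7 of suffix 2, the low group 2 (HXB3 and HXB13) and 8, so every suffix 1 library had Alb at 11.61 or above.

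The tissue label was checked against cell type markers. Myh6, the alpha heavy chain of cardiac myosin, lay between 19.99 and 20.74 in the high group and between 20.13 and 20.71 in the low group. The mean of 12 cardiomyocyte markers ran from 17.78 to 18.15 in the high group and from 17.81 to 18.01 in the low group. The spike-in mean, a measure of RNA added in fixed amount, ran from 6.72 to 7.49 in the high strains and from 6.63 to 7.93 in the low ones, and the library medians from 7.89 to 7.95 over all 21. These measures overlapped between the groups.

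In the other 19099 genes, 141 were higher in the high-Alb strains (0.738% of genes tested) and 1 was lower (0.00524%), by limma with the batch suffix as a covariate and a Benjamini-Hochberg adjusted p under 0.05. At an unadjusted p under 0.05 there were 443 higher and 163 lower. Of the 141, 112 were among 283 measured genes of 10 liver lists and 29 were not. The log2 differences of the 141 ran from 0.26 to 1.82 with a median of 0.97, against a median of 0.00 over all genes tested. All 141 were higher in the high group within the suffix 1 libraries, where their median difference was 0.67, and within the suffix 2 libraries, where it was 1.08. With suffix 1 alone (4 against 2 strains) limma called 3 genes higher and 2 lower, and none of those 3 was among the 141. With suffix 2 alone it called 157 higher, of which 136 were among the 141. Both subsets are part of the libraries that gave the 141, so neither the shared direction nor this overlap is separate evidence.

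Apob codes for apolipoprotein B, the structural protein of very low density lipoprotein, and had the smallest p. In the high-Alb strains its lowest level was 9.13, its median 9.37 and its highest 10.27. In the low-Alb strains these were 7.04, 7.63 and 8.87. Every high strain was above every low strain, and the difference was 1.59 ± 0.17 (SE, n = 11 against 10, limma adjusted p = 8.74e-05). Only 4 genes separated the groups in this way (0.0209% of genes tested), all of them higher in the high group: Apob, Pzp, Hgfac and Rdh7, of which the latter 2 were named after their values were seen.

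Ahsg, coding for fetuin-A, a plasma protein that binds calcium phosphate, had the largest difference. Its lowest, median and highest levels were 8.70, 9.25 and 10.55 in the high group and 6.75, 7.25 and 8.70 in the low group. The groups just touched, with HXB13 at the top of the low group, and the difference was 1.82 ± 0.24 (SE, n = 11 against 10, limma adjusted p = 0.000806).

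**Figure D1:**
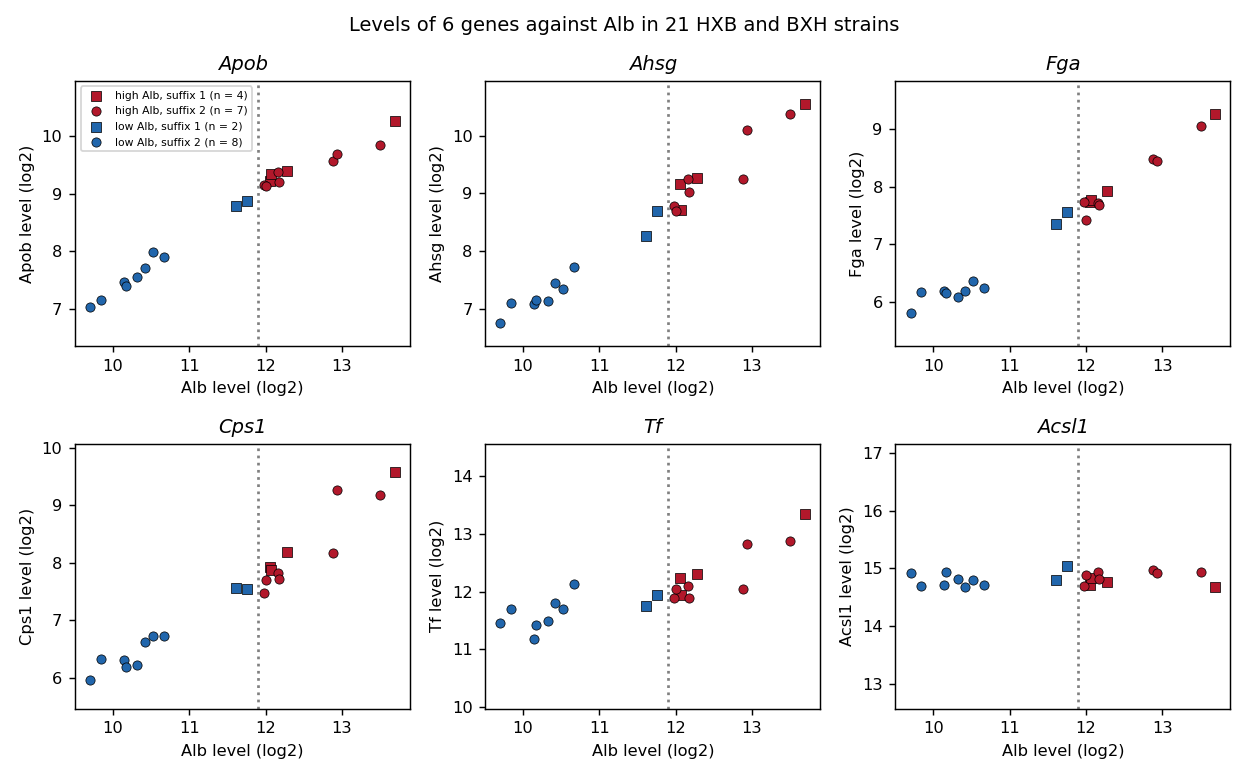
Log2 levels of Apob, Ahsg, Fga, Cps1, Tf and Acsl1 (vertical axes, all spanning the same range) against the log2 level of Alb in 21 strains, 1 point per strain, red for high and blue for low Alb, squares for column suffix 1 and circles for suffix 2, with the threshold of 11.9 dotted. Apob, Ahsg, Fga and Cps1 climb with Alb across both groups, HXB3 and HXB13 lie between the groups, Tf climbs less, and Acsl1 stays between 14.68 and 15.05.

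The ends of each group were often held by the same strains, least clearly at the lower end of the high group. Among the 141 genes, the highest low-Alb strain was HXB13 in 85 and HXB3 in 56, which are the low strains with the most Alb and the only ones of suffix 1. HXB31, the strain with the least Alb, was the lowest of the low group in 113 genes. BXH5, the strain with the most Alb, was the highest of the high group in 133 genes, and the lowest of that group was HXB24 in 51, HXB20 in 46, BXH2 in 23 and HXB29 in 13, with 3 further strains in the rest. With Alb as a continuous measure limma called 257 genes higher with more Alb and 2 lower. This fit, its slopes and the places of the strains above use the same Alb values as the split that chose the 141 genes. They are other settings or views of the same comparison, not separate evidence. The slope of the 141 genes on Alb had a median of 0.54, in log2 units per log2 unit of Alb, and ran from 0.13 to 0.95. It was steeper in genes with a higher mean level: the median slope was 0.34 in the 64 genes with a mean under 5, 0.60 in the 57 with a mean from 5 to 7, and 0.82 in the 20 with a mean of 7 or more. The transformation behind the deposited values is not given, so slopes of genes at different levels are not on a known common scale.

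Inside the low group the levels of Apob can be set beside Alb as a description, with no test, since Apob was picked for its difference on the same Alb values. From the least to the most Alb, the 8 low strains of suffix 2 had Apob at 7.04 in HXB31, 7.15 in HXB5, 7.46 in HXB1, 7.39 in HXB7, 7.56 in HXB21, 7.71 in BXH13, 7.99 in BXH11 and 7.89 in BXH9. The order of Apob was that of Alb except for HXB1 with HXB7 and BXH11 with BXH9, neighbors that changed places.

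The plasma and transport proteins were the list with the most members called. Of 35 measured, 26 were higher, none was lower, 4 were steady and 5 undecided, with a median difference of 1.15. A gene was counted as steady when it was not called and the 95% confidence interval of its difference lay within 0.5 of 0 on the log2 scale, which 18218 of all genes tested did (95.4%), and as undecided when it was neither called nor steady. Fetub, a fetuin that inhibits the hatching protease ovastacin, was at 6.74, 7.25 and 8.79 (lowest, median and highest) in the high strains and at 5.23, 5.61 and 6.81 in the low ones, a difference of 1.67 ± 0.24. Gc, the vitamin D binding protein, was at 8.14, 8.52 and 10.40 against 6.40, 6.95 and 8.15, a difference of 1.63 ± 0.24. In both genes the groups overlapped at their edges. Inter-alpha-trypsin inhibitor heavy chains rose together, Itih4 by 1.52 ± 0.22 and Itih2 by 1.15 ± 0.17, as did the histidine-rich glycoprotein Hrg by 1.34 ± 0.20 and the protease inhibitor Mug1 by 1.52 ± 0.23, all with an adjusted p of 0.00140 by limma.

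Some genes of the plasma and transport protein list were not called, abundant ones among them. Tf, coding for transferrin, the iron carrier of plasma, had a mean above all called genes and lay at 11.89, 12.10 and 13.35 in the high group and at 11.18, 11.69 and 12.12 in the low group. Its difference of 0.63 ± 0.16 was not called (adjusted p = 0.0848), though it was called in 7 of the alternative fits, the continuous one included (slope 0.36). Ttr, the thyroxine carrier transthyretin, differed by 0.33 ± 0.22 (adjusted p = 1.00), and in the low group HXB31, the strain with the least Alb, held the highest Ttr, 11.04, while the next strain was at 9.74. Lifr, a cytokine receptor, was steady at a difference of 0.03 ± 0.09, as was the iron hormone Hamp at -0.02 ± 0.12, with a low mean of 4.11.

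Of 19 measured genes of apolipoproteins and lipoprotein assembly, 11 were higher and 2 steady, with a median of 0.71. Apoa1, the main protein of high density lipoprotein, rose by 1.54 ± 0.23. Apoh, which binds phospholipid, was at 6.43, 6.93 and 8.42 in the high strains and at 5.14, 5.55 and 6.59 in the low strains, a difference of 1.34 ± 0.21 (adjusted p = 0.00140). Apoe, which macrophages and other cells outside the liver also make, was the most abundant of the list and was steady. It lay between 12.15 and 13.21 in the high group and between 11.90 and 12.92 in the low group, a difference of 0.19 ± 0.14.

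The clotting genes gave 16 higher of 22 measured, with 4 steady and a median of 0.71. The genes of the 3 fibrinogen chains, which lie next to each other in the genome, all rose. Fga was at 7.42, 7.77 and 9.26 in the high strains against 5.82, 6.20 and 7.57 in the low ones, a difference of 1.61 ± 0.22. Fgb rose by 1.55 ± 0.24, Fgg by 1.08 ± 0.17 and Plg, the precursor of plasmin, by 1.22 ± 0.21. Vtn, coding for the adhesive protein vitronectin, was steady at 0.17 ± 0.09, and so were the clotting factors F5 (0.19 ± 0.12) and F11 (0.26 ± 0.08). F11 had a low mean, 3.10, and ran from 2.75 in HXB31 to 4.09 in BXH5. Steady there means only a difference within 0.5, not that F11 did not move with Alb.

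Among complement and acute phase genes, members of the same cascade parted. Of 23 measured, 9 were higher, 7 steady and 7 undecided, with a median of 0.55. The terminal components C5 and C9 rose by 1.07 ± 0.17 and 0.96 ± 0.16. The initiating proteases C1r, C1s and Masp1 were steady with differences of -0.03 ± 0.08, -0.09 ± 0.11 and 0.02 ± 0.07, at levels between 11.15 and 12.16 in all strains. C3, the central component, was the only called liver gene with a mean level above 9 (difference 1.04, named after its values were seen).

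**Figure D2:**
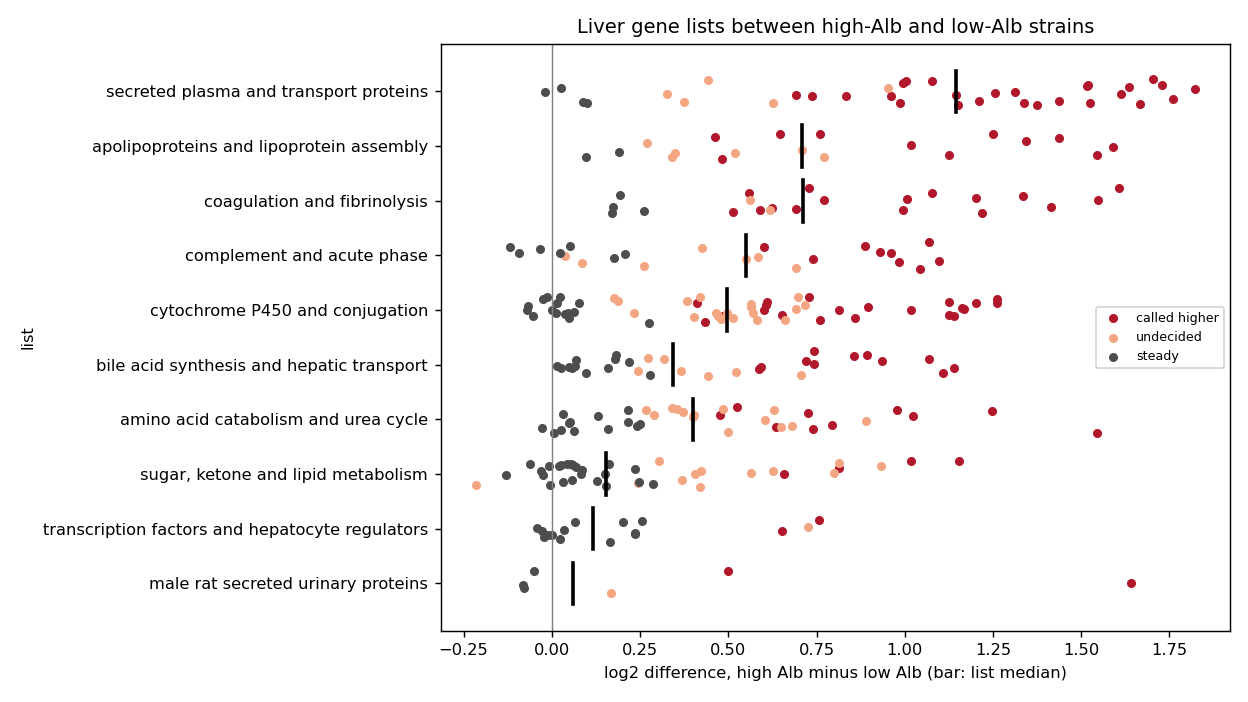
Log2 difference between high-Alb and low-Alb strains (horizontal axis) for each measured gene of 10 liver lists (vertical axis), red for genes called higher, light orange for undecided and grey for steady, with the median of each list as a black bar. The medians run from 1.15 for plasma and transport proteins to 0.06 for the list named after urinary proteins, and no gene of any list was called lower.

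Drug-metabolizing enzymes were higher in 21 of 56 measured members (median 0.50), with 15 steady and 20 undecided. Cyp2c22 rose by 1.20 ± 0.18, Cyp3a2 by 1.26 ± 0.20 and Cyp3a18 by 0.61 ± 0.08. Cyp3a18 was not called when the threshold was 0.5 higher (0.46, adjusted p = 0.377). The 3 most abundant members were steady: the sterol hydroxylase Cyp27a1 (0.05 ± 0.09), the retinaldehyde dehydrogenase Aldh1a1 (-0.03 ± 0.08) and the fatty acid hydroxylase Cyp4v3 (0.04 ± 0.05).

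Of 30 genes of bile acid synthesis and hepatic transport, 11 were higher and 12 steady (median 0.34). Abcb11, the bile salt export pump, was at 5.16, 5.71 and 6.71 in the high strains and 4.46, 4.63 and 5.42 in the low strains, a difference of 0.89 ± 0.13 (adjusted p = 0.00127). Slc27a5, the bile acid CoA ligase, rose by 1.07 ± 0.16. Abcb4, which exports phospholipid into bile, stood near 9.3 in both groups and was steady at 0.01 ± 0.09.

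The amino acid and urea cycle list had 10 higher, 13 steady and 14 undecided of 37 (median 0.40). Cps1, the entry enzyme of the urea cycle, was at 7.48, 7.92 and 9.57 in the high strains and 5.96, 6.47 and 7.57 in the low strains, a difference of 1.55 ± 0.24 (adjusted p = 0.00147). Glul, glutamine synthetase, was steady at 0.03 ± 0.08, as were the aspartate aminotransferase Got1 at -0.03 ± 0.08 and the argininosuccinate lyase Asl at 0.06 ± 0.08. Bhmt, which remethylates homocysteine, rose by 1.25 ± 0.22. The count of 10 fell to 5 without BXH12, HXB1, HXB17 or HXB31 and to 6 without BXH8, BXH11, HXB3, HXB7 or HXB21, each left out alone.

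Of 39 sugar, ketone and lipid enzymes, 23 were steady, 12 undecided and 4 rose (median 0.15). Over all genes tested 95.4% were steady and 0.738% called higher. Of the 12 undecided, 11 had a positive difference and 9 an unadjusted p under 0.05 by limma. Of the 739 undecided over all genes tested, 403 had a positive difference and 153 such a p. Pck1, the entry enzyme of gluconeogenesis, rose by 1.02 ± 0.19 and the medium-chain acyl-CoA synthetase Acsm1 by 0.81 ± 0.14. Acsl1, the most abundant member, lay between 14.68 and 14.97 in the high group and between 14.68 and 15.05 in the low group (0.02 ± 0.06). Alas1, which starts heme synthesis, differed by 0.03 ± 0.10 and the phosphatidate phosphatase Lpin1 by 0.06 ± 0.06.

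Of 16 transcription factors and regulators, 13 were steady and 2 rose (median 0.12). The growth hormone receptor Ghr was steady at -0.03 ± 0.07, the fatty acid sensor Ppara at 0.00 ± 0.05 and the iron regulator Hjv at 0.02 ± 0.06. Hnf4a, a transcription factor of the hepatocyte, was at 4.21, 4.72 and 6.17 in the high strains against 3.73, 3.99 and 4.65, a difference of 0.76 ± 0.17 (adjusted p = 0.0267). It was not called without BXH8, BXH12, HXB1, HXB3, HXB7, HXB21 or HXB31, each left out alone, where the adjusted p was at most 0.0719. The call was also lost with the threshold 0.5 lower (0.81, adjusted p = 0.131) and in suffix 1 alone (0.61, adjusted p = 0.609). Tfr2, a transferrin receptor, rose by 0.65 ± 0.15 (adjusted p = 0.0357) and lost the call without any of 12 strains left out alone, in which the difference ran from 0.58 to 0.66 and the adjusted p from 0.0554 to 0.0984. Those 12 were BXH6, BXH8, BXH9, BXH11, BXH12, BXH13, HXB1, HXB3, HXB7, HXB21, HXB29 and HXB31. Tfr2 was also not called with the threshold 0.5 lower, with a family term, in suffix 1 alone or among assembled genes, where the adjusted p ran from 0.0534 to 0.630.

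Of 15 genes listed as urinary proteins of the male rat, 6 were measured, of which 2 rose and 3 were steady (median 0.06). The 6 included Pzp, Cst3, Akr1b7 and Dpep1, so the counts do not stand for urinary proteins as a class. Pzp, an alpha-macroglobulin protease inhibitor, was at 8.40, 8.82 and 10.35 in the high strains and 6.56, 7.19 and 8.34 in the low strains, a difference of 1.64 ± 0.22. Spink1l rose by 0.50 ± 0.10 (adjusted p = 0.00822). Cst3, the protease inhibitor cystatin C, which most tissues make, was steady at -0.08 ± 0.13.

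Whether a liver gene was called went with its level in these libraries. Of 118 liver genes with a mean under 5, 43 were higher and 30 steady. Of 88 with a mean from 5 to 7, 49 were higher and 19 steady, and of 35 with a mean from 7 to 9, 19 were higher and 10 steady. Of 42 with a mean of 9 or more, 1 was higher and 37 steady, and their median difference was 0.03. Over all genes tested, at any level, 0.738% were called higher and 95.4% were steady. The liver genes at 9 or more lay near these shares. Shares of all genes within each range of level are not given here. Over all 283 liver genes, 112 were higher, 96 steady and 75 undecided. Of the 75 undecided, 74 had a positive difference and 57 an unadjusted p under 0.05 by limma. Over all genes tested 739 were undecided, of which 403 had a positive difference and 153 such a p.

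**Figure D3:**
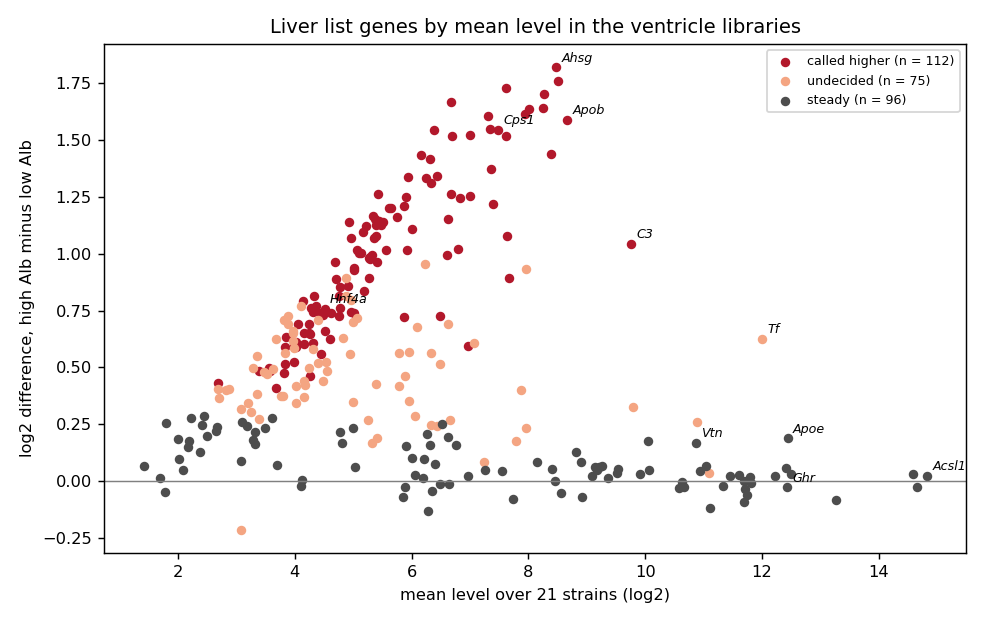
Log2 difference between high-Alb and low-Alb strains (vertical axis) against the mean log2 level over 21 strains (horizontal axis) for 283 measured liver genes, red for the 112 called higher, light orange for the 75 undecided and grey for the 96 steady. The called genes lie below a mean of 9 except C3, their differences widen up to about the level of Ahsg, and the genes at higher levels lie near 0, with Tf between.

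The 29 called genes outside the liver lists were, apart from Pigr and Clec4f, looked at after their values were seen, and 3 carry only a locus identifier. Pigr, the receptor that carries IgA across epithelia and into bile, was at 6.84, 7.38 and 8.82 in the high strains against 5.61, 6.12 and 7.12, a difference of 1.27 ± 0.20 (adjusted p = 0.00140). The others included Gulo, the last enzyme of vitamin C synthesis in the rat (1.15 ± 0.24), Gjb1, a connexin of hepatocyte gap junctions (1.05 ± 0.21), Ttpa, the vitamin E transfer protein (0.72 ± 0.15), Hgfac, the activator of hepatocyte growth factor (0.58 ± 0.12) and Tmprss6, the protease that restrains Hamp (0.60 ± 0.13). Ca3, a carbonic anhydrase of muscle, fat and liver, rose by 1.05 ± 0.19.

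The list for the other cells of the liver had a median difference of 0.06. It includes the keratins Krt8 and Krt18, which hepatocytes hold too. Of 17 measured, Clec4f, a lectin of Kupffer cells, the macrophages of the liver, was the only one called (0.68 ± 0.14, adjusted p = 0.0143), 10 were steady and 6 undecided. All 6 undecided markers had a positive difference and 3 of them an unadjusted p under 0.05 by limma. For comparison, 403 of the 739 undecided over all genes tested had a positive difference and 153 such a p. Clec4f lay at 3.42, 4.08 and 5.07 in the high strains and at 3.26, 3.43 and 3.90 in the low ones. The mean of the 17 ran from 5.05 to 5.58 in the high group and from 4.90 to 5.26 in the low group. None of the measured members of the other 19 marker lists was called: cardiomyocyte, atrial, fibroblast, endothelium, pericyte and smooth muscle, macrophage, lymphocyte, neutrophil and mast cell, erythroid, platelet, adipocyte, mesothelium, Schwann cell, skeletal muscle, lung, pancreas, kidney, brain, and gut and stomach. Over all genes tested only 0.738% were called higher, so lists of this size could be expected to hold few calls or none. The medians of these 19 lists ran from -0.15 for brain to 0.11 for pancreas. Some lists had few measured members: 2 of 9 for lung, 2 of 12 for pancreas and 3 of 8 for adipocyte. Gut and stomach had 4 of 10 and kidney 5 of 10, so these lists say little about their tissues. The pancreas members were Cela1 (1.37 to 1.99) and Ins2 (15.47 to 16.01). Of the measured brain markers 4 of 9 were undecided, and of the atrial ones 3 of 7. The erythroid mean, a measure of blood left in the tissue, ran from 11.06 to 12.49 in the high group and from 11.05 to 11.90 in the low group, and with this mean as a further covariate 131 genes were called higher, all of them among the 141. The part of any other cell type in the result was not tested beyond these values.

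Col8a1, a short-chain collagen of vessel walls, was the only gene called lower. It was at 8.62, 8.99 and 9.40 in the high strains and 9.14, 9.47 and 9.93 in the low ones, with overlapping groups and a difference of -0.49 ± 0.11 (adjusted p = 0.0212). The call was lost under 5 alternatives: without HXB13 (-0.49, adjusted p = 0.0524), with the threshold 0.5 lower (-0.50, adjusted p = 0.202) or 0.5 higher (-0.33, adjusted p = 0.705), and in suffix 1 alone (-0.48) or suffix 2 alone (-0.50, adjusted p = 0.137).

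Alb itself lies on chromosome 14 of rn7 at 17607397 to 17622819 on the minus strand. Of the 141 genes, 99 had an assembled gene of their own name and hence a position, and these lay on 21 chromosomes, with 5 on chromosome 14. Those on chromosome 14 included Gc, which belongs to the albumin family, at 18632146 to 18667563.

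Promoters of the called genes were read for 3 motifs of hepatocyte factors, and the promoters of Alb, Fga, Fgb, Pzp and Cps1 are shown because these genes are described above and their windows hold a match. Each window runs from 250 bases before to 50 bases after the start of the gene, from RefSeq on GRCr8, a newer build than that of the files, and is written 5′ to 3′ on the strand of the gene. Capitals mark GTTAAT, a part of the HNF1 motif, or CAAAGTCCA, the core of the HNF4 motif, on either strand. The Alb window is chr14:17906930-17907229 (minus strand), that of Fga chr2:170671919-170672218 (plus strand), that of Fgb chr2:170700826-170701125 (minus strand), that of Pzp chr4:163491286-163491585 (minus strand) and that of Cps1 chr9:76063613-76063912 (plus strand).
Alb: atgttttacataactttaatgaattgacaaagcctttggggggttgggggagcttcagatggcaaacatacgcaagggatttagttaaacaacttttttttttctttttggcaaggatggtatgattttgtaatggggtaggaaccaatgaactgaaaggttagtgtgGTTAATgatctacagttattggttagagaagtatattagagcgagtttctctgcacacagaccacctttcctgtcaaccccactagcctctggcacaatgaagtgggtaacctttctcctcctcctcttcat
Fga: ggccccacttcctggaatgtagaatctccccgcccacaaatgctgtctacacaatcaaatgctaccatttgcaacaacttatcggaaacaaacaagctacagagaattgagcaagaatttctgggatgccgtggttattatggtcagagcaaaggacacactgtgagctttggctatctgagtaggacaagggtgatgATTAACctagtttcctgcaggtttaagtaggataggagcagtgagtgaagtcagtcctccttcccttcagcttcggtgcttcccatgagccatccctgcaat
Fgb: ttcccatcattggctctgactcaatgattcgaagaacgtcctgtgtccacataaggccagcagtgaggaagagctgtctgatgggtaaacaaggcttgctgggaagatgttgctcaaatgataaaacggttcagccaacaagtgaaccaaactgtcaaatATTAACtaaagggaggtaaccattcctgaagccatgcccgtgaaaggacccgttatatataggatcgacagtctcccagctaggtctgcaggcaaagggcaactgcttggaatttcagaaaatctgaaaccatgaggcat
Pzp: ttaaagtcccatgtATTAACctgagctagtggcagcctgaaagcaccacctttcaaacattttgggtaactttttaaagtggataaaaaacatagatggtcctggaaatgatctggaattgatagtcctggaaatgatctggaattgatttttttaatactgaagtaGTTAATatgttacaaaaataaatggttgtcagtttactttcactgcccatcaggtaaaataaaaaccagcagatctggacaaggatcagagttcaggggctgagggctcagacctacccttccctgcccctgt
Cps1: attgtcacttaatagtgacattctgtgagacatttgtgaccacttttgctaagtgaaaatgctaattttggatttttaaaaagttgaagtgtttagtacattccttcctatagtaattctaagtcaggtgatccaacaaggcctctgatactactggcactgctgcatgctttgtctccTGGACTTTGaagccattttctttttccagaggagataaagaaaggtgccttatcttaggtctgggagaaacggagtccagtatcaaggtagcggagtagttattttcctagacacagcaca

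In these windows the HNF1 letters began 82 bases before the start of Alb, 52 before that of Fga, 90 before that of Fgb, and 83 and 236 before that of Pzp, and the HNF4 letters 71 before that of Cps1. GTTAAT stood in 28.0% of the promoters of 100 called genes that had one in the table, in 5.41% of those of 74 steady liver genes, in 5.15% of those of 13722 genes tested and in 7.37% of all 27457 promoters. CAAAGTCCA stood in 5%, 2.70%, 0.328% and 0.375% of the same sets. The C/EBP palindrome TTGCGCAA was in 0 of the 100 called and 0 of the 74 steady genes, and in 0.233% and 0.197% of the larger sets. The motifs do not overlap each other in their letters, both strands were searched, and a match is a description of the letters, not a binding site.

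At the level of single transcripts, 106 of 39546 were higher in the high-Alb strains (0.268%) and none was lower by limma, with 480 lower at an unadjusted p under 0.05. Symbols were matched for 103 of the 106, which gave 100 genes, and 91 of these were also called as genes. Another 4 were not called as genes and 5 had no row of that name among the genes. In 3 genes, which were named after their values were seen, a called transcript stood beside a steady one.

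Ephx1, the microsomal epoxide hydrolase of drug metabolism, was steady as a gene (0.06). Its transcript NM_001034090.3 lay at 8.59, 8.91 and 9.29 in the high strains and 8.72, 8.92 and 9.28 in the low ones, a difference of -0.06 ± 0.09. Its transcript NM_012844.3 lay at 4.83, 5.54 and 7.19 in the high strains and 3.56, 4.01 and 5.23 in the low ones, a difference of 1.501 ± 0.28 (adjusted p = 0.0133). The more abundant transcript thus held its level while the less abundant one rose with Alb. In Fbp1, the fructose bisphosphatase of gluconeogenesis, NM_012558.3 rose by 1.40 ± 0.28 (adjusted p = 0.0267) and XM_039095342.1 was steady at -0.06 ± 0.11. In Dmgdh, which breaks down dimethylglycine, NM_139102.2 rose by 0.83 ± 0.15 (adjusted p = 0.00866) and XM_039101723.1 was steady at 0.06 ± 0.09. The steady transcripts of Fbp1 and Dmgdh had means of 2.00 and 1.89, near the lower end of the scale.

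**Figure D4:**
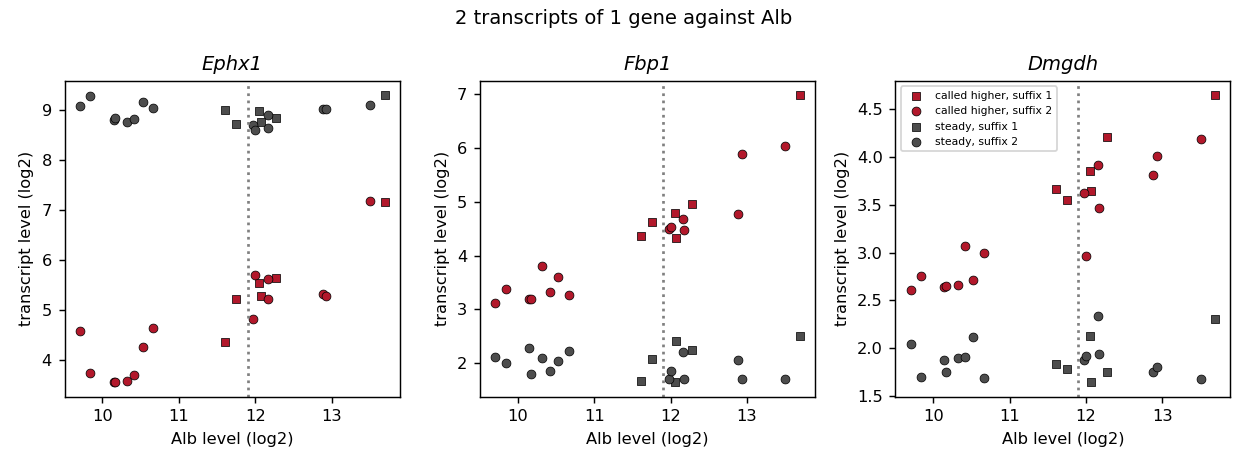
Log2 levels of 2 transcripts each of Ephx1, Fbp1 and Dmgdh (vertical axes) against the log2 level of Alb (horizontal axes) in 21 strains, red for the transcript called higher and grey for the steady one, squares for column suffix 1 and circles for suffix 2, with the threshold of 11.9 dotted. In Ephx1 the steady transcript stays above 8.5 in all strains while the called one runs from 3.56 to 7.19.

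The progenitor strains were not used by the rule, and their libraries show how the same genes moved with Alb when the strain was the same. In the table of assembled genes, which was scaled on its own, Alb was at 12.59, 11.12, 12.21 and 14.14 in BN-Lx replicates 1 to 4, so 2 rats of 1 inbred strain and 1 labeled batch differed by 3.02. Ahsg was at 9.20, 7.89, 8.72 and 10.88, Apob at 9.53, 8.54, 9.44 and 11.13, and Cps1 at 8.42, 6.39, 7.72 and 9.55 in the same 4 rats. These genes put replicates 4 and 2 at the top and the bottom, as Alb did. Tf was at 12.09, 11.63, 11.67 and 13.37 and Ttr at 9.85, 9.15, 9.63 and 10.79, so these genes, not called among the strains, were also highest in replicate 4 and lowest in replicate 2, by 1.74 and 1.64. Between these 2 rats, picked here for their Alb, 97 of the 99 called genes that the table names were higher in replicate 4, with a median of 2.54, against 47.9% of all 12910 named genes and a median of -0.01. The 2 exceptions were Cyp2d2 (-1.36) and Saa4 (-0.12). The assembled genes of these names lay at 2.22 and 8.64 in replicate 2, whereas the RefSeq genes had means of 5.43 and 5.18 over the strains, so the rows that share a name may not measure the same transcripts. The same holds for G6pc1, at 12.4 in the assembled table against a mean of 4.52, which differed by 0.06. Of 82 steady liver genes 65 were higher, with a median of 0.22, and 16 differed by more than 1, compared with 96 of the called ones.

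The steady genes separated by level in that pair of rats. Of 41 steady genes with a mean under 7 among the strains, 15 were higher by more than 1 in replicate 4, for example F11 by 1.39, F7 by 2.64 and Urad by 2.64, and their median was 0.63. The 41 with a mean of 7 or more had a median of 0.11. Acsl1 stood at 14.82 in both rats.

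SHR replicate 4 appears in several columns, which the labels give as libraries of 1 replicate number sequenced in separate batches. In the table of assembled genes its 2 columns had Alb at 9.53 and 10.86, and 96 of the 99 called genes were higher in the column with more Alb, with a median of 0.84, against 35.2% and -0.14 over all named genes and 31 of 82 steady liver genes. In the RefSeq table its 2 columns, suffix 1 and suffix 2, had Alb at 10.36 and 10.88, and 132 of the 141 called genes were higher in the latter, with a median of 0.33, against 55.9% and 0.02 over all genes. Of the 96 steady liver genes, 72 were higher there too (75.0%), with a median of 0.07. Tf and Ttr, not called among the strains, were set beside these as the column with more Alb minus the other. They differed by 0.05 and -0.08 in the assembled pair, and by 0.21 and 0.29 in the RefSeq pair. All these are values of single libraries with no test.

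**Figure D5:**
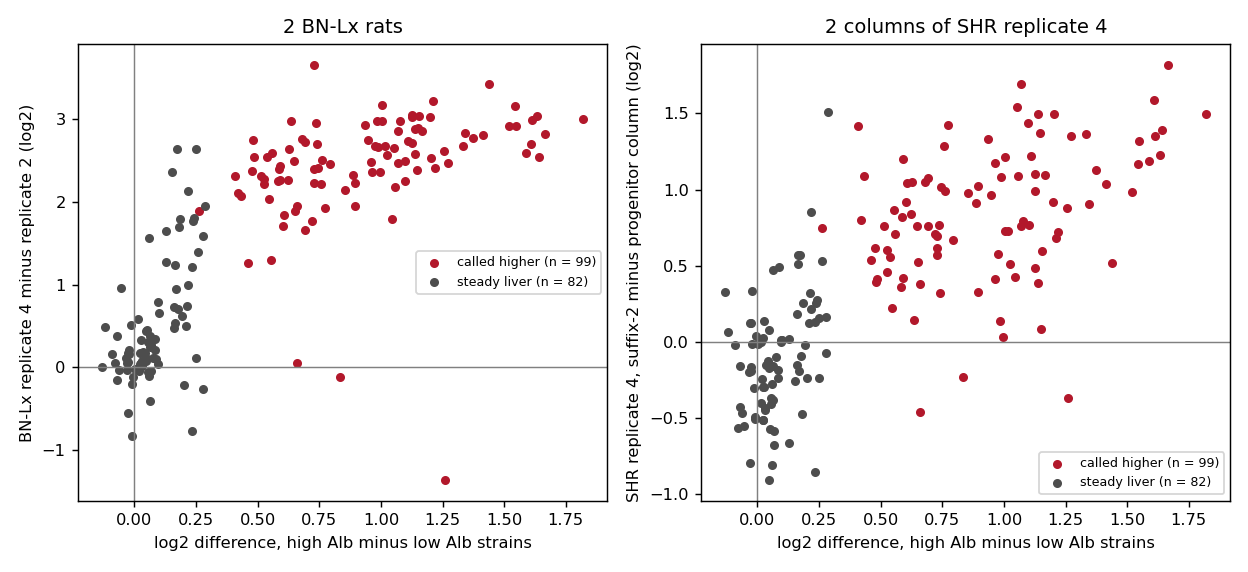
Log2 differences within 1 strain (vertical axes) against the log2 difference between high-Alb and low-Alb strains (horizontal axes) for 99 called genes in red and 82 steady liver genes in grey, on the left between BN-Lx replicates 4 and 2 and on the right between 2 columns of SHR replicate 4. On the left 97 and on the right 96 of the red points lie above 0, and the grey points spread on both sides of 0.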

How the data were processed

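Left ventricle total RNA of untreated rats was sequenced by the authors after depletion of ribosomal RNA. Per the labels, the authors worked on build rn7 with DESeq2 (no version), RSEM 1.3.1, StringTie 1.3.5, cutadapt 1.9.1, HISAT2 2.1.0 and Bowtie2 2.3.4.3, whose roles and order are not stated there. The deposited values are log2 expression levels per RefSeq gene, RefSeq transcript or assembled gene, taken as base 2 from their range. Their transformation is not given in the sources used here and no counts were used, so the depth per library is unknown and no counting interval is given. Library medians from 7.89 to 7.95 show that the libraries had been scaled to each other.

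Strains were split at an Alb level of 11.9, and all other genes (19099) and transcripts (39546) were compared with limma 3.58.1 in R 4.3.3 (lmFit, eBayes with trend, two-sided, Benjamini-Hochberg adjusted p under 0.05), with the column batch suffix as covariate and no filter on low values. Alb and 69 spike-in RNAs were left out of the tests. Since strains were selected on Alb, its own difference was not tested. The p-values measure the spread between strains with 1 library each. The script was tested on simulated data before use. The genes named were the 20 with the smallest p among those higher, up to 10 among those lower, the 3 with the highest mean and 2 called with the smallest p in each liver list, up to 3 steady members per list, and in each marker list the 2 with the highest mean and every called member; exceptions are marked as named after their values were seen. Members and lists were chosen with earlier results of these data known. Symbols were matched for 28492 of 39547 transcripts. Alternatives were other splits of Alb, other covariates, quantile normalization, a filter on low means, other limma options, each batch alone, assembled genes and each strain left out.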

Additional observations from a re-analysis of the deposited data

Results flagged for a closer look

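Among 105 results checked, 6 genes had a low-Alb strain far from the other 9 by Dixon's 95% criterion, which chance alone meets in about 1 of 20 groups. Ttr was highest in HXB31, at 11.04 against 9.74 in the next strain, although HXB31 had the least Alb. Clec4f was highest in HXB13, at 3.90 against 3.59. Reln, a marker of hepatic stellate cells that is steady here, was highest in BXH13, at 8.52 against 8.06. Masp1 was highest in BXH11, at 11.89 against 11.52. Ins2, listed as a pancreas marker but measured at a high level in all 21 strains, was also highest in BXH11, at 16.01 against 15.69. Gsn, an actin-binding protein listed for fibroblasts, was lowest in HXB7, at 14.51 against 14.98. The criterion was not applied to the group of 11 high-Alb strains, so strains far from the others there were not looked for.

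The difference between high-Alb and low-Alb strains was also tested for a difference between the HXB and BXH families. By limma 0 of 19099 genes were called for this interaction, and 749 had an unadjusted p under 0.05.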

How the results depend on the processing

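The count of genes called, 142 (141 higher and 1 lower), was 111 to 167 when each strain was left out in turn, and that of transcripts, 106, was 90 to 122. With Alb as a continuous measure the counts were 259 genes and 203 transcripts. With the threshold 0.5 higher they were 283 genes and 200 transcripts, and with the threshold 0.5 lower 89 genes. The libraries of suffix 1 alone gave 5 genes and 0 transcripts, with only 4 against 2 strains. The other alternatives, including other limma options, no batch term, a family term, suffix 2 alone, quantile normalization, a filter on low means, a spike-in or erythroid covariate and assembled genes, stayed within 1.5 times of the count. Leaving out the strains within 0.2 of the threshold, chosen after seeing the data, gave 190 genes. The 32 called genes that were named by the rule kept their direction under each alternative in which they were measured. All 32 lost the call in suffix 1 alone. Called genes named after their values were seen are not among the 32. No paired analysis was possible because the HXB and BXH strains compared have 1 library each and no label pairs a high-Alb strain with a low-Alb one.

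Depth and transformation are unknown, which limits what a steady call says at a low level: of 41 steady liver genes with a mean under 7, 15 differed by more than 1 between 2 BN-Lx rats whose Alb differed by 3.02. Each strain has 1 library, so the spread between rats of 1 strain is not part of any p-value of its own. Alb, batch suffix and strain are not balanced, and the low strains of suffix 1 are only HXB3 and HXB13.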
